A study of Mus musculus with 96 samples.

Results

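A set of 32 genes of the unfolded protein response, of protein folding in the endoplasmic reticulum (ER) and of ER-associated degradation were followed across 96 mouse RNA-seq libraries. They were chosen by name for these functions, with earlier results of these data known. Shares of calls among them are therefore set beside those of all genes as a description. All 32 were found among the 22709 genes of the normalised count table. The study compared offspring of dams with maternal immune activation (MIA) or saline, each given a CSF1R inhibitor (PLX5622, from Plexxikon, written PLX here) or a control treatment, in females and males. CSF1R is a receptor that microglia need for survival, and the stated aim of the injections was to target microglia and let them renew. Hippocampus and prefrontal cortex were sampled, which gives 16 groups: saline control, saline PLX, MIA control and MIA PLX, for each sex and tissue. Each group held 6 libraries, except MIA control females with 7 and MIA control males with 5 in each tissue. Strain, age, litter, the agent of immune activation and the dose and timing of the inhibitor are not given in the labels used here. Hippocampal libraries held 22.2 to 26.7 M recovered reads and prefrontal ones 22.8 to 25.9 M. As a check of the tissue labels, 6 hippocampal marker genes summed to 5098 to 11770 normalised reads in hippocampus, against 319.2 to 545.2 in the cortex.

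The ER folds secreted and membrane proteins, and unfolded protein there activates a signalling pathway called the unfolded protein response. Its sensors are IRE1 (gene Ern1), PERK (Eif2ak3) and ATF6. IRE1 splices the messenger RNA of the transcription factor XBP1, PERK lowers general translation while favouring translation of ATF4, and cleaved ATF6 enters the nucleus. XBP1 and ATF6 raise chaperones such as BiP (Hspa5), disulfide isomerases and the degradation machinery, whereas ATF4 drives a separate set that includes Ddit3 (CHOP), Chac1 and Trib3. Counts per gene, as used here, do not separate spliced from unspliced Xbp1 mRNA.

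Promoters of some ER folding genes carry a sequence that ATF6 and XBP1 are known to use, the ER stress response element. It was searched for as CCAAT and CCACG with 9 bases between them, on both strands, from 250 bases before to 50 bases after the transcription start (RefSeq, GRCm38.p6). Of the 32 genes, 28 had a promoter sequence, and 9 of these (32.1%) held the element, against 22 of 13936 genes (0.158%) with a promoter sequence. The genes were chosen for the response in which this element is known to be used, so the higher share describes a chosen set. Among the 8 chaperones and cochaperones it was found in 3, Hspa5, Hsp90b1 and Dnajc3, while the promoters of Dnajb9, Dnajb11 and Sdf2l1 held no match. The 10 matches are written 5′ to 3′ on the strand of the match, with CCAAT and CCACG in capitals, because several of the genes that carry them lead the results below:
Hspa5: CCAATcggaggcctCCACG
Hsp90b1: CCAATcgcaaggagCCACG
Hsp90b1 (second match): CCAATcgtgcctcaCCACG
Dnajc3: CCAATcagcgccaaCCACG
Pdia6: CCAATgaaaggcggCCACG
Creld2: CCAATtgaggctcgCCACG
Calr: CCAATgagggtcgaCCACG
Canx: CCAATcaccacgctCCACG
Derl3: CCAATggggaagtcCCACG
Syvn1: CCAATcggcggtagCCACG
These genes encode BiP (Hspa5), the glucose-regulated chaperone GRP94 (Hsp90b1), the cochaperone and PERK inhibitor p58IPK (Dnajc3), the disulfide isomerase Pdia6, the folding factor Creld2, the lectin chaperones calreticulin (Calr) and calnexin (Canx), the degradation factor derlin-3 (Derl3) and its ubiquitin ligase partner HRD1 (Syvn1). Counting the base before the start as -1, the Hspa5 match lay at -65 to -47 and the Derl3 match at -156 to -138 on the opposite strand. Promoters of 5 genes are printed with their 250 bases before the start on the strand of the gene, the matched 19 bases in capitals, to show the element in place. They are Hspa5 (chr2:34771840-34772089, plus strand), Hsp90b1 (chr10:86705445-86705694, minus strand), Pdia6 (chr12:17266339-17266588, plus strand), Calr (chr8:84846932-84847181, minus strand) and Derl3 (chr10:75893148-75893397, plus strand):
Hspa5: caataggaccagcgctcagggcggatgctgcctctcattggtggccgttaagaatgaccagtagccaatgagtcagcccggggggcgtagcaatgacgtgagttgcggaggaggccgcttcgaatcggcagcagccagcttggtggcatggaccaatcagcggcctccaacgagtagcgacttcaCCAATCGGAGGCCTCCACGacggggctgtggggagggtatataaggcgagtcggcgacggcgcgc
Hsp90b1: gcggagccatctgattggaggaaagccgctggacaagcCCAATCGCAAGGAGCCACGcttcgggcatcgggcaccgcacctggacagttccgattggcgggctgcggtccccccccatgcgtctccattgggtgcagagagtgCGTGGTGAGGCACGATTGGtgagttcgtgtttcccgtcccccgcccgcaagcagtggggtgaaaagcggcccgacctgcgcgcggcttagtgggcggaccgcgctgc
Pdia6: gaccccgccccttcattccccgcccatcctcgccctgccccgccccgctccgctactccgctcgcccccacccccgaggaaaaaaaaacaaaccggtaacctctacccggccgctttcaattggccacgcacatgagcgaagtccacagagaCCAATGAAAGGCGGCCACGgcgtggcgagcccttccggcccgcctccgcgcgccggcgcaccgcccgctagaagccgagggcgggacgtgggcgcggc
Calr: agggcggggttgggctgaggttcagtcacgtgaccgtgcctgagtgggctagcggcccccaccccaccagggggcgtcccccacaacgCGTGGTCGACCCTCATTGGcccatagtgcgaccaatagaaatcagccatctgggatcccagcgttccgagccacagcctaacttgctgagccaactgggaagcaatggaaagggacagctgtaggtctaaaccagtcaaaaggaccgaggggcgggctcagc
Derl3: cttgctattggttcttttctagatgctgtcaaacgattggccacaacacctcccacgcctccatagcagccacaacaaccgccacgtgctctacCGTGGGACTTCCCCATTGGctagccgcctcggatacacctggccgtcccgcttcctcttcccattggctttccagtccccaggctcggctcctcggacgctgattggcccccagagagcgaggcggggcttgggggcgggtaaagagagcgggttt
The second form of the element, ATTGG and CCACG with 1 base between them, was found in 2 of 28 genes (7.14%), Dnajb11 and Herpud1, against 9 of 13936 genes (0.0646%). The ATF4-type C/EBP-ATF element (TGATG, any base, AA, any base) was found in 3 of 28 (10.7%), Chac1, Trib3 and Herpud1, against 403 genes (2.89%). The unfolded protein response element (TGACG followed by TGG) was found in 0 of 28 and in 134 genes (0.962%). A match describes letters in this window and is not evidence of binding, and 15 of the 28 promoters held none of the 4 motifs.

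Some libraries stood apart from the rest before any comparison. The share of normalised counts in 168 genes of ribosomal and respiratory chain subunits, none of them among the 32, was 1.26% to 1.44% in 14 hippocampal libraries and 0.897% to 1.12% in the other 34. In prefrontal cortex it was 1.23% to 1.41% in the libraries with the same 14 sample labels and 0.866% to 1.19% in the other 34. These 14 labels comprised 12 of the controls and 2 of the PLX samples, so this class and the inhibitor overlap. Fits as designed, with a term for the class and without these libraries are given for part of the comparisons. These are the averaged inhibitor comparisons, hippocampal saline males and the comparison of tissues, and the others are given as designed only. Atf6, Atf4, Sel1l and Selenos differed between the classes with no overlap in at least 1 tissue. Atf6 was 1858 to 2231 in the hippocampal libraries that stood apart against 2296 to 3893 in the rest. Atf4 was 2114 to 2684 against 1616 to 2066. In prefrontal cortex Sel1l, an adaptor of the degradation ligase, was 4513 to 5349 against 5512 to 7189, and Selenos, an ER membrane selenoprotein, was 790.9 to 938.3 against 573.9 to 760. In the other tissue Atf6 separated as well, with 2156 to 2562 against 2746 to 4040 in prefrontal cortex. Atf4 overlapped there, with 2455 to 2989 against 1783 to 2483. In hippocampus Sel1l (4328 to 5491 against 5201 to 7326) and Selenos (835.6 to 1012 against 619.7 to 950.1) overlapped. Hspa5 overlapped widely, with 5666 to 11880 against 4463 to 13810 in hippocampus. These are descriptions of the 2 classes, without a test. The share of all genes that separate in this way was not counted. The separation is therefore not shown to be particular to these genes.

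Most of the chaperones, the disulfide isomerases and Xbp1 varied together between libraries of one group, with the cochaperone Dnajb9 as an exception. Hspa5, the main ER chaperone that also holds the sensors inactive, ran from 4463 over a median of 8094 to 13810 normalised reads across the 48 hippocampal libraries, and from 4984 over 8306 to 13610 in prefrontal cortex. Among the 34 libraries that did not stand apart, the highest Hspa5 value was 3.09 times the lowest in hippocampus and 2.73 times in prefrontal cortex. The SD within groups on the log2 scale was 0.38 in hippocampus and 0.35 in prefrontal cortex for Hspa5, against a median over all genes tested of 0.175 and 0.173. It was larger still for Sdf2l1, a partner of the BiP chaperone cycle, at 0.52 and 0.43, and for the low-count gene Derl3 at 0.50 and 0.41. The largest SD was that of Trib3, a gene of still lower count, at 0.745 and 0.59. The sensor Ern1 varied little, at 0.0945 and 0.119, as did Atf4 at 0.082 and 0.104. Of the 32 genes, 15 in hippocampus and 16 in prefrontal cortex had an SD above the median of all genes.

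With group means removed, the other 31 genes were correlated with Hspa5 in each tissue and class, 124 relations in all, of which 84 passed an adjusted permutation p of 0.05. In the 34 libraries of the larger class, 24 of 31 passed in hippocampus and 22 of 31 in prefrontal cortex, all positive. The disulfide isomerase Pdia4 had r = 0.968 in hippocampus (rho = 0.935, permutation p = 1e-05, adjusted 3.44e-05) and 0.97 in prefrontal cortex (rho = 0.965, the same permutation p, which is the smallest that 100000 resamples can give). Without the 2 libraries farthest from the median of Hspa5, r was 0.956 and 0.954. Pdia6 followed with 0.962 and 0.977, the lectin chaperone Calr with 0.953 and 0.941, Xbp1 with 0.94 and 0.92, and the secreted ER protein Manf with 0.93 and 0.907. Pdia3, Dnajc3, Dnajb11, Hsp90b1, Hyou1, Sdf2l1 and Creld2 lay between 0.801 and 0.945. Derl3 reached 0.69 and 0.694. Dnajb9, a cochaperone that represses IRE1, had only 0.488 (adjusted permutation p = 0.00613) and 0.352 (adjusted permutation p = 0.0597, not passed), and 0.193 and -0.489 in the libraries that stood apart.

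The ATF4 arm did not follow Hspa5 in this way. Atf4 had r = 0.0139 in hippocampus and 0.181 in prefrontal cortex, Trib3, a pseudokinase, 0.178 and -0.00474, and Chac1, which degrades glutathione, -0.226 and -0.126. Ppp1r15a (GADD34), which restores translation after PERK, had -0.347 and -0.237, and none of these r values passed the adjusted permutation test. By rank, Ppp1r15a in hippocampus did pass, with rho = -0.413 (adjusted permutation p = 0.0253). Trib3 and Chac1 had medians of only 5.9 and 83.9 normalised reads in these hippocampal libraries. Counting error lowers the r that such genes can reach, so their low r does not show that they fail to follow Hspa5. Ddit3 stood between the sets with 0.56 and 0.659, and both passed. Among the sensors, Ern1 had r = -0.316 and -0.0574, neither of them past the test, while Atf6 had 0.367 and 0.584. The hippocampal value of Atf6 passed narrowly (adjusted permutation p = 0.0483) and did not pass without the 2 farthest libraries (r = 0.359, adjusted permutation p = 0.0711). Eif2ak3 had 0.476, which passed (adjusted permutation p = 0.00759), and 0.303, which did not. An r above 0.7 was reached by 14 of 31 genes (45.2%) in each tissue, against 0.496% of 19365 genes in hippocampus and 0.687% in prefrontal cortex. Of the 20 genes of the table with the highest r, 12 were members of this set in each tissue. In the 12 libraries that stood apart and shared a group with another such library, 21 of 31 relations passed in hippocampus (20 positive, 1 negative) and 17 in prefrontal cortex (16 positive, 1 negative). The negative one was Edem1, which directs misfolded glycoproteins to degradation. The background was higher in these sets. An r above 0.7 was reached there by 17 of 31 genes in hippocampus, against 4.82% of all genes. In prefrontal cortex it was 16 of 31, against 6.81%. Of the 20 genes with the highest r, 7 and 6 were members. With the 2 farthest libraries of each set left out, 74 of the 124 relations passed. The permutations treat the values left after removing group means as independent, so their p-values are somewhat too small. This weighs most in the sets of 12 libraries and on narrow passes.

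**Figure D1:**
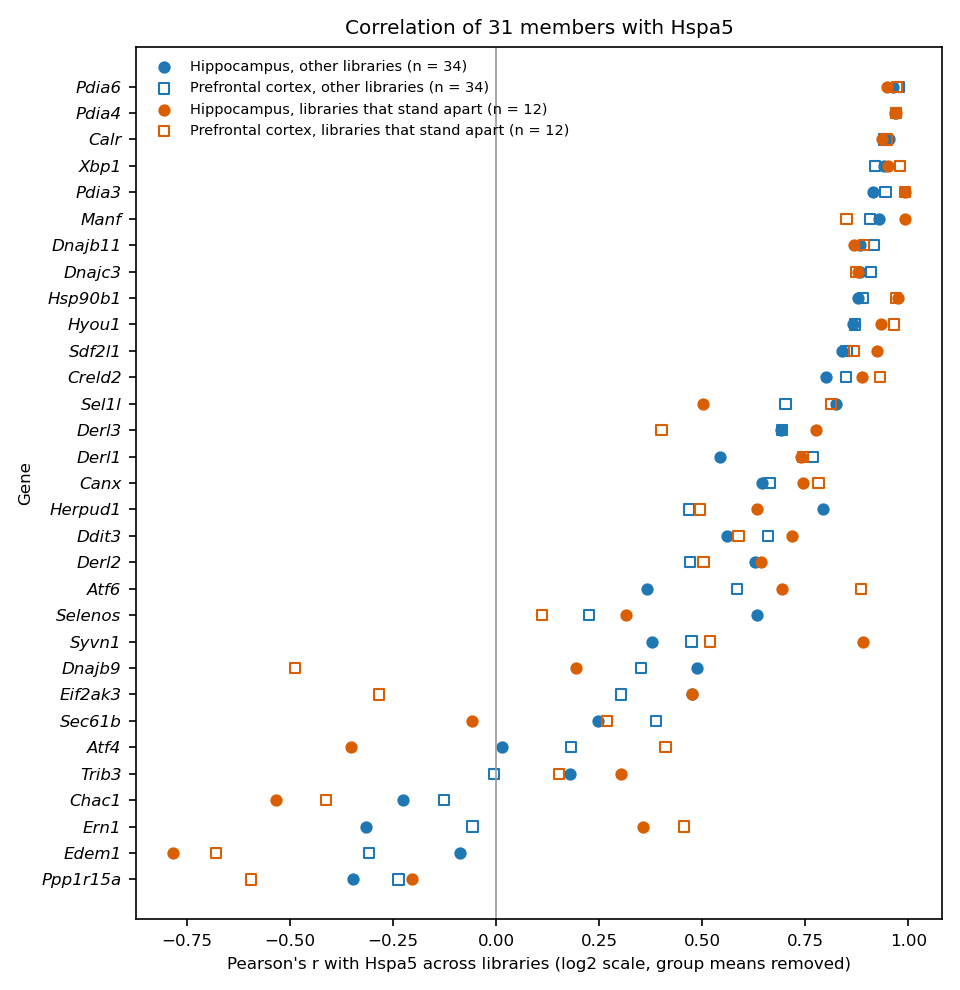
Pearson's r with Hspa5 for 31 genes (rows), across libraries on the log2 scale with group means removed; filled circles are hippocampus, open squares prefrontal cortex, blue the 34 other libraries and orange the 12 that stand apart. From Pdia6 down to Creld2 each of the 4 values per gene is at least 0.801, while Ppp1r15a, Edem1, Ern1 and Chac1 scatter at or below 0 in the blue sets.

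The promoter element and this co-variation can be set side by side. The 8 genes other than Hspa5 with the element had a median r of 0.839 in hippocampus and 0.87 in prefrontal cortex, against 0.56 and 0.388 for the 19 with a promoter sequence but without it. The separation was incomplete. Pdia4 and Xbp1, without a match in this window, were among the highest, and Syvn1, with one, had only 0.379 and 0.474. This is a description of a chosen set, without a test.

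The level of these genes in one tissue tracked the level in the other. Libraries of the 2 tissues carry the same group and sample number, though the labels do not state that both came from one animal. Over the 34 labels of the larger class, Hspa5 in hippocampus and prefrontal cortex had r = 0.956 with group means removed (rho = 0.927, both permutation p = 1e-05, adjusted 3.2e-05 for r, and r = 0.937 without the 2 farthest labels). Pdia6, Calr, Xbp1 and Pdia4 had 0.938, 0.936, 0.931 and 0.914. Derl3 had 0.635 (rho = 0.625), with r = 0.573 without the 2 farthest labels. Of 64 relations computed over both classes after the data had been seen, 38 passed an adjusted permutation p of 0.05, 21 of 32 in the larger class and 17 of 32 among the 12 labels that stood apart. Atf4 (0.262), Dnajb9 (0.107), Ern1 (0.0968) and Chac1 (-0.00595) did not pass. For Chac1, counting error at its low level also lowers the r that it can reach. An r above 0.7 between tissues was found for 12 of 32 genes in the larger class, against 1.49% of all genes, and the medians were 0.551 and 0.164. Over the 12 labels that stood apart, 16 of 32 genes had such an r, against 8.29% of all genes. The medians there were 0.713 and 0.204. Among the labels that stood apart the Derl3 relation rested on 2 samples, with r = 0.742 falling to 0.185 without them.

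**Figure D2:**
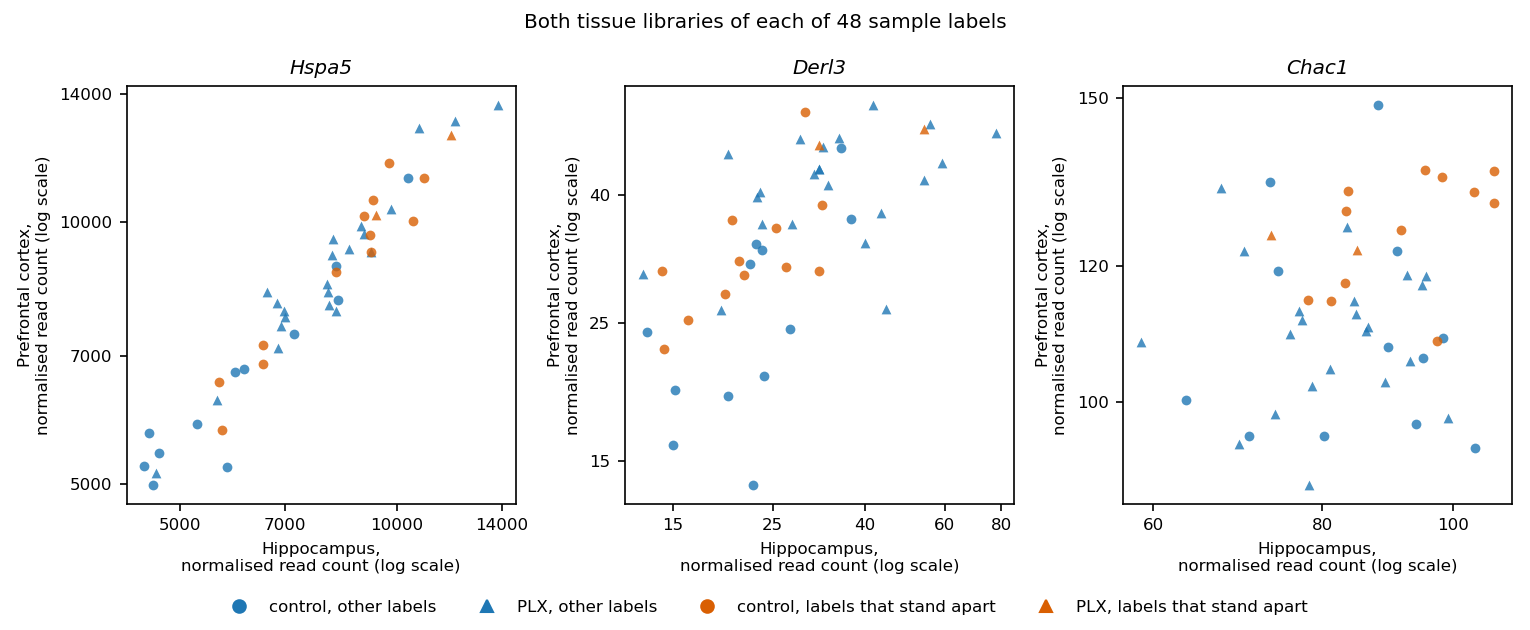
Normalised read count in hippocampus (x axis, log scale) and prefrontal cortex (y axis, log scale) for Hspa5, Derl3 and Chac1; each point is 1 of 48 sample labels, circles are control and triangles PLX, orange marks labels that stand apart. Hspa5 follows a narrow diagonal from 4463 to 13810 in hippocampus, Derl3 a looser one, and Chac1, at counts where counting error weighs more, shows no line.

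In hippocampus, the inhibitor comparison averaged over both sexes and both maternal treatments called 12 of the 32 genes (limma, adjusted p below 0.05), 7 higher and 5 lower with PLX. The percentage of all tested genes called was 40% (20.8% higher, 19.2% lower), so the share among these genes was not above the background. Derl3, a derlin that helps move misfolded proteins out of the ER, had the largest difference in size. It was 13.19, 22.45 and 37.13 (lowest, median, highest) in 24 control libraries and 12.88, 31.94 and 77.95 in 24 PLX libraries, so the ranges overlapped. Its log2 difference was 0.59 ± 0.13 (SE), or 1.5-fold, with an adjusted p of 0.00102. Sel1l rose by 0.20 ± 0.04 (adjusted p = 0.00061), from a median of 5180 to 6001. The sensors Ern1 and Atf6 rose by 0.21 ± 0.06 and 0.21 ± 0.06, and the third sensor, Eif2ak3, had 0.04 ± 0.03 and did not pass. The cochaperone Dnajc3 rose by 0.19 ± 0.06, the nucleotide exchange chaperone Hyou1 by 0.14 ± 0.04 and Derl2 by 0.12 ± 0.04.

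The 5 that fell were Atf4, Ppp1r15a, Chac1, Selenos and Sec61b. Atf4 was 1669, 2090 and 2684 in controls and 1616, 1802 and 2248 with PLX, a fall of 0.21 ± 0.04 on the log2 scale (adjusted p = 0.000838). Ppp1r15a fell by 0.22 ± 0.05 and Chac1 by 0.13 ± 0.05 (adjusted p = 0.0434), a call that was lost in 22 of the 48 fits that left out 1 library. Selenos fell by 0.19 ± 0.05 and Sec61b, a subunit of the translocation channel, by 0.24 ± 0.08. Hspa5 was 4463, 6864 and 10900 in controls and 4627, 8140 and 13810 with PLX, and its difference of 0.22 ± 0.11 did not pass (adjusted p = 0.101, and 0.0475 without MIA PLX male replicate 6). Xbp1 (0.10 ± 0.08) and Ddit3 (-0.06 ± 0.05) did not pass either.

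Adding the class term left 1 call, Derl3 at 0.62 ± 0.14 (adjusted p = 0.0394), against 0.376% of all genes. The difference of Ern1 became 0.03 ± 0.04, that of Atf4 -0.08 ± 0.03 and that of Sec61b -0.02 ± 0.06. That of Hspa5 became 0.39 ± 0.11 (adjusted p = 0.0827), that of Sdf2l1 0.50 ± 0.14 and that of Xbp1 0.25 ± 0.07, none past the threshold. All 8 chaperones and cochaperones and all 6 disulfide isomerases and lectin chaperones had positive values in that fit, with medians of 0.18 and 0.21 against -0.003 over all genes. Most of these genes varied together between libraries. Counts of positive values or of unadjusted p-values among members, here and below, are therefore not counts of independent results. Without the 14 libraries, 0 of the 31 genes still tested were called by limma (background 0.0457%), 18 had an unadjusted p below 0.05 (10.8% of all genes), and Derl3 kept a difference of 0.58 ± 0.18 with an adjusted p of 0.23. That smaller set held 12 control and 22 PLX libraries. In them Hspa5 was 4463, 5886 and 10370 in controls and 4627, 8094 and 13810 with PLX.

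In prefrontal cortex 14 of the 32 were called, 8 higher and 6 lower, against 37.8% of all genes tested (19.7% higher, 18.1% lower). Sel1l rose by 0.24 ± 0.04 (adjusted p = 0.000479), from a median of 5431 to 6492. Derl3 was 13.74, 30.27 and 54.52 in controls and 26.2, 43.64 and 55.85 with PLX, a difference of 0.54 ± 0.11, or 1.45-fold (adjusted p = 0.00145). Its control range reached almost as high as its PLX range, but only controls lay below 26.2. Atf6 rose by 0.29 ± 0.07, Dnajc3 by 0.25 ± 0.05, Hyou1 by 0.17 ± 0.04 and Derl2 by 0.11 ± 0.03, and the other 2 that rose were Ern1 (0.21 ± 0.07) and Pdia4 (0.22 ± 0.08). Sec61b fell by 0.28 ± 0.07, Ppp1r15a by 0.21 ± 0.05, Atf4 by 0.17 ± 0.05 and Selenos by 0.16 ± 0.05. Trib3 fell by 0.45 ± 0.16, at a median of only 16.76 normalised reads in controls, and Ddit3 by 0.14 ± 0.06 (adjusted p = 0.0462), which was lost in 31 of the 48 fits that left out 1 library. Hspa5 had 0.23 ± 0.10 (adjusted p = 0.0759) and Xbp1 0.10 ± 0.07, and neither passed. Hspa5 did pass in 5 of the 48 fits that left out 1 library, with adjusted p-values from 0.0329 to 0.123 over all 48. The libraries left out in those 5 were MIA control female replicates 4 and 5, MIA control male replicate 3, MIA PLX male replicate 6 and saline control male replicate 4.

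With the class term 2 remained called in prefrontal cortex (background 0.217%), Derl3 at 0.68 ± 0.12 (adjusted p = 0.00196) and Sel1l at 0.11 ± 0.03 (adjusted p = 0.0481). Without the libraries that stood apart, limma called 0 (background 0.143%), with 22 of the 32 and 9.92% of all genes at an unadjusted p below 0.05, and Derl3 lay at the threshold with 0.68 ± 0.15 (adjusted p = 0.05). In those 12 control libraries Derl3 was 13.74, 24.3 and 47.67, and in the 22 PLX libraries 26.2, 42.8 and 55.85. The difference between the tissues in the inhibitor comparison was itself tested and called 0 of the 32 genes and 0% of all genes by limma, edgeR and DESeq2, with 0 of the 32 and 2.69% of all genes at an unadjusted p below 0.05. The 3 smallest p-values there belonged to Ddit3 (0.08 ± 0.08), Atf6 (-0.08 ± 0.09) and Dnajb9 (-0.05 ± 0.06).

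**Figure D3:**
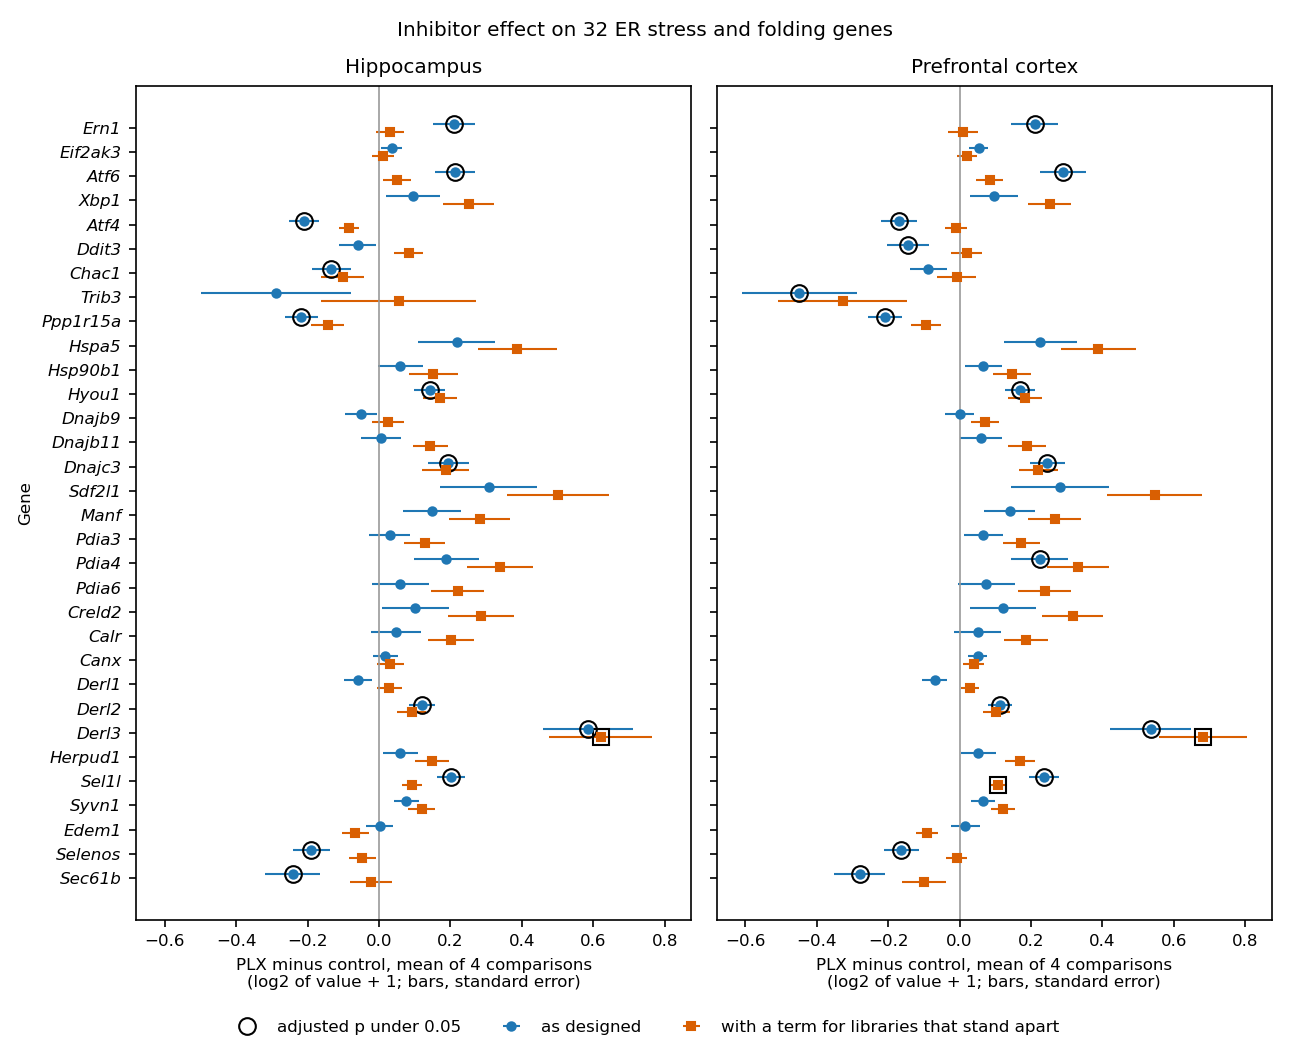
Difference PLX minus control, averaged over 4 comparisons, on the scale of log2(value + 1), for 32 genes in each tissue; blue circles are the fit as designed, orange squares the fit with a term for libraries that stand apart, bars are standard errors, black outlines mark an adjusted p below 0.05. Derl3 keeps its outline in both fits and both tissues, while Ern1, Atf6, Atf4 and Sec61b move towards 0 with the term and Hspa5, Xbp1 and Sdf2l1 move away from it.

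The Derl3 difference in hippocampus was largest in saline males, though its sex difference and its interaction with MIA, given below, did not pass. In saline males Derl3 was 13.19, 15.27 and 29.51 (lowest, median, highest, 6 libraries) without inhibitor and 31.57, 49.19 and 77.95 with PLX, so every PLX library lay above every control library. The log2 difference was 1.45 ± 0.25, or 2.74-fold, and Derl3 was the 1 of 32 genes called (adjusted p = 0.00587, background 0.0251%). With the class term it was 2.82-fold (adjusted p = 0.00598, background 0.0201%). Without the libraries that stood apart, 2 control and 5 PLX libraries were left, and limma called 0 (background 0%, with 10 of 31 members and 5.33% of all genes at an unadjusted p below 0.05), with Derl3 at 1.46 ± 0.40 (adjusted p = 0.868). Leaving out PLX replicate 6, with 77.95 the highest library, gave an adjusted p of 0.0594, and DESeq2 on recovered reads called 0 of the 32 (background 0.0502%). In saline females the values were 19.9, 24.65 and 37.13 without and 23.39, 31.22 and 34.98 with PLX, a difference of 0.18 ± 0.25. In MIA females they were 15.06, 23.69 and 35.4 against 12.88, 30.15 and 39.95, a difference of 0.21 ± 0.24. The 5 libraries of MIA control males had 22.96, 32.06, 19.58, 23.84 and 21.05, against 19.18, 34.55 and 55.72 in 6 PLX libraries, a difference of 0.51 ± 0.26. These other groups overlapped.

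The sex difference of the inhibitor comparison in hippocampus was -0.79 ± 0.25 for Derl3 (females minus males), with an unadjusted p of 0.00285 and an adjusted p of 0.857, so a difference between the sexes did not pass. The interaction of MIA and inhibitor in males was -0.94 ± 0.36 (adjusted p = 0.9999). In prefrontal cortex the 4 differences of Derl3 were closer to each other, at 0.70 ± 0.23 in saline females, 0.46 ± 0.23 in saline males, 0.54 ± 0.22 in MIA females and 0.45 ± 0.24 in MIA males, and none of them passed alone.

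**Figure D4:**
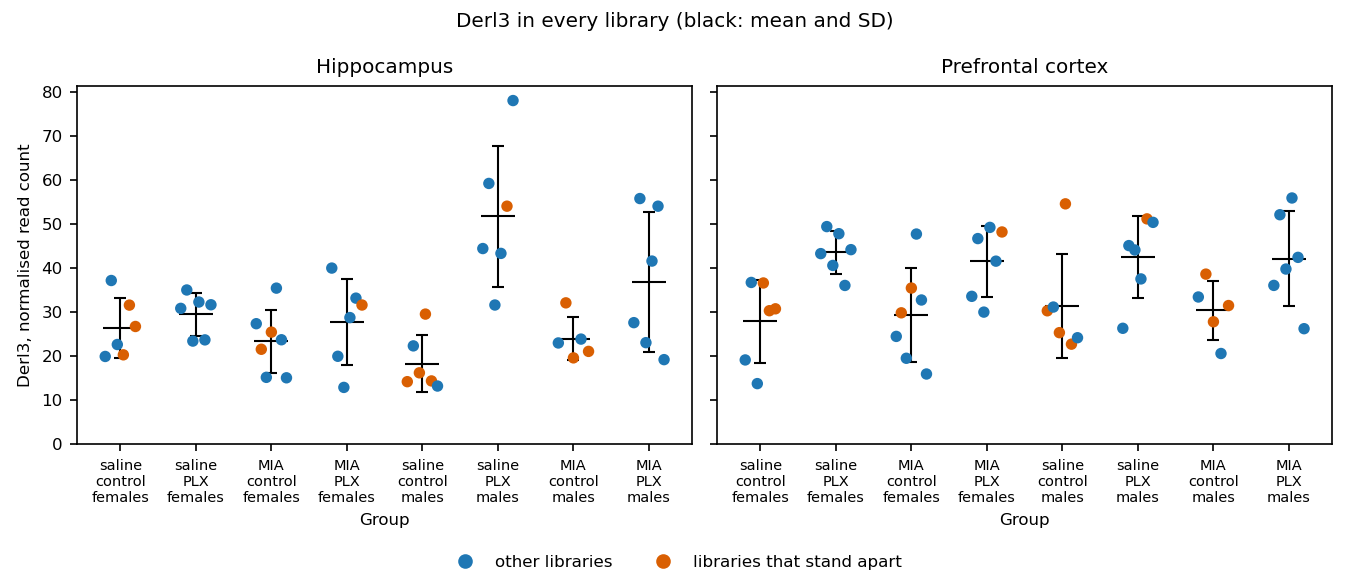
Derl3 normalised read count in every library of the 16 groups; blue points are other libraries, orange points libraries that stand apart, black bars the mean and SD. Saline PLX males in hippocampus, from 31.57 to 77.95, lie above all saline control males, and in prefrontal cortex the means of the PLX groups are 41.5 to 43.5, against 27.85 to 31.34 in the control groups.

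Microglia were the cells the inhibitor was meant to act on, and their markers were measured beside these values. The summed count of 18 microglial genes was 11830, 13430 and 18960 in hippocampal controls and 11540, 12560 and 14300 with PLX. In prefrontal cortex it was 12790, 14190 and 17820 against 11700, 13060 and 14990. As designed, 10 of the 18 were lower in each tissue, against 19.2% of all genes in hippocampus and 18.1% in prefrontal cortex. With the class term 3 were lower and 1 higher in hippocampus, against 0.376% of all genes called, and 6 were lower and 1 higher in prefrontal cortex, against 0.217%. In bulk tissue, fewer cells of a type and less RNA per cell cannot be told apart. Plasma cells are a known site of high Derl3. Of 8 plasma cell genes in the table, the heavy chain Ighm had a median of 207.8 in hippocampus, and the other 7 lay between 1.049 (Igkc) and 22.03 (Sdc1). In prefrontal cortex the medians were 643.6 for Ighm and 109.2 for Ighg2c, and the other 6 lay between 2.744 (Tnfrsf17) and 58.05 (Prdm1). The 8 genes summed to 233.6 to 489.2 in hippocampal controls and 165.8 to 434.6 with PLX, and 0 rose as designed in either tissue. Choroid plexus genes varied widely in hippocampus, from 998.1 to 99210 summed over 10 genes, and were 217.7 to 563.6 in prefrontal cortex. The part of any of these cell types in the results was not tested.

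The other single inhibitor comparisons called 0 of the 32 with limma, 3 in hippocampus and 4 in prefrontal cortex, against backgrounds of 0.00502% to 0.338%. In hippocampus the background was 0.0301% in saline females, 0.00502% in MIA females and 0.00502% in MIA males. At an unadjusted p below 0.05 there were 6 of the 32 in saline females (22.7% of all genes), 0 in MIA females (7.71%) and 6 in MIA males (28.2%), so the members' share was below that of all genes in each. edgeR and DESeq2 also called 0 in each. The smallest p-values were those of Atf4 (-0.27 ± 0.09), Ern1 (0.29 ± 0.12) and Sel1l (0.18 ± 0.08) in saline females. In MIA females they were those of Syvn1 (0.14 ± 0.07), Selenos (-0.18 ± 0.10) and Xbp1 (0.23 ± 0.15). In MIA males they were those of Sel1l (0.28 ± 0.08), Atf4 (-0.31 ± 0.09) and Ppp1r15a (-0.30 ± 0.09), each with an adjusted p of 0.0994. Without MIA control male replicate 2 or 5 that comparison had 4 calls, but 18.2% and 14.7% of all genes were then called as well. Some of these differences shrank in the alternative fits, which include the class term. Ern1 in saline females ranged from 0.084 to 0.293 over them, and Sel1l in MIA males from 0.118 to 0.285.

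In prefrontal cortex saline males came closest to calls (background 0.338%, with 12 of the 32 and 27.8% of all genes at an unadjusted p below 0.05). Dnajc3 had 0.40 ± 0.10 with an adjusted p of 0.0506, Sel1l 0.32 ± 0.08 with 0.0589 and Derl2 0.25 ± 0.07 with 0.059. On the recovered reads edgeR called 1 of the 32 there (background 0.358%) and DESeq2 6, 5 of them higher (background 6.23%). With limma, leaving out control replicate 4 gave 1 call (0.287% of all genes), control replicate 6 gave 5 (19.3%) and PLX replicate 5 gave 6 (15%). In MIA males leaving out control replicate 2 gave 4 calls (8.62% of all genes) and control replicate 5 gave 2 (10.1%). In saline females (background 0.0252%), MIA females (0.0252%) and MIA males (0.0202%) edgeR and DESeq2 called 0 as well. At an unadjusted p below 0.05 there were 6 of the 32 in saline females (17.8% of all genes), 4 in MIA females (7.59%) and 7 in MIA males (24.9%). The smallest p-values belonged to Derl3, Trib3 (-0.94 ± 0.32) and Atf6 (0.35 ± 0.13) in saline females. They belonged to Syvn1 (0.17 ± 0.06), Derl3 and Hyou1 (0.19 ± 0.08) in MIA females, and to Sel1l (0.33 ± 0.09), Atf6 (0.40 ± 0.14) and Ppp1r15a (-0.26 ± 0.10) in MIA males. Over the alternative fits, which include the class term, Atf6 in MIA males ranged from 0.108 to 0.395.

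Maternal immune activation gave no call among the 32 genes. In 10 comparisons of MIA with saline, over both tissues, limma, edgeR and DESeq2 each called 0 of 32, with 0 to 2 of them and 2.38% to 6.41% of all genes at an unadjusted p below 0.05. The background was 0% in 9 of them and 0.00502% (1 gene) in hippocampus of females without inhibitor. Averaged over sex and inhibitor, the smallest p-values in hippocampus were those of Herpud1, a degradation scaffold (-0.08 ± 0.05), the cochaperone Dnajb11 (-0.09 ± 0.06) and Syvn1 (-0.06 ± 0.04). In prefrontal cortex they were those of Ppp1r15a (0.09 ± 0.05), Pdia4 (-0.10 ± 0.08) and Dnajc3 (-0.06 ± 0.05). For Derl3 the average was -0.12 ± 0.13 in hippocampus and -0.01 ± 0.11 in prefrontal cortex. Hspa5 without inhibitor was 4463, 7714 and 10520 in hippocampus of saline females and 4679, 5808 and 10370 in MIA females, ranges that overlapped almost fully. Litter is not in the labels, so these p-values take the libraries as independent.

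The 4 interactions of MIA and inhibitor called 0 of 32 with limma, edgeR and DESeq2 (background 0%, 0 to 2 members and 2.13% to 4.02% of all genes unadjusted), as did the 2 sex differences of the inhibitor comparison (background 0%, 1 to 2 members and 4.54% to 4.94% of all genes unadjusted). In hippocampus the smallest p-values of the interaction were those of Atf4 (0.24 ± 0.12), Xbp1 (0.32 ± 0.21) and Atf6 (-0.22 ± 0.15) in females, and of Derl3, Eif2ak3 (-0.13 ± 0.08) and Chac1 (-0.24 ± 0.16) in males. In prefrontal cortex they were those of Trib3 (0.90 ± 0.44), Syvn1 (0.14 ± 0.09) and Ddit3 (0.23 ± 0.16) in females, and of Canx (-0.19 ± 0.08), Hsp90b1 (-0.32 ± 0.15) and Dnajb9 (-0.22 ± 0.11) in males. Females against males, averaged over the other factors, gave 0 of 32 in both tissues with the 3 tools, against backgrounds of 0.246% in hippocampus and 0.141% in prefrontal cortex. Unadjusted there were 2 in hippocampus (7.85% of all genes) and 1 in prefrontal cortex (6.05%). The smallest p-values were those of Atf4 (-0.10 ± 0.04), Creld2 (-0.21 ± 0.09) and Syvn1 (-0.06 ± 0.04) in hippocampus, and of Herpud1 (-0.13 ± 0.05), Xbp1 (-0.12 ± 0.07) and Creld2 (-0.16 ± 0.09) in prefrontal cortex, all with negative values (females minus males).

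Between the tissues, 19 of the 32 genes differed, 6 higher and 13 lower in hippocampus, against 65.8% of all genes tested (34.8% higher, 31% lower), so the share was again not above the background. Atf4, Ddit3, Chac1 and Trib3 of the ATF4 arm were lower in hippocampus. Chac1 was 58.77, 84.57 and 107.2 in 48 hippocampal libraries and 89.52, 113.7 and 148.7 in 48 of prefrontal cortex, a difference of -0.43 ± 0.04 (adjusted p = 1.46e-18). Trib3, at medians of 6.795 and 13.84, had -0.94 ± 0.13 (adjusted p = 1.53e-09). Atf4 had -0.21 ± 0.03, Ddit3 -0.23 ± 0.04 and Xbp1 -0.15 ± 0.05, whereas Ppp1r15a had -0.04 ± 0.03 and did not pass. Of the sensors, Eif2ak3 (-0.20 ± 0.02, adjusted p = 4e-16) and Atf6 (-0.28 ± 0.04) were lower and Ern1 (0.12 ± 0.05) higher in hippocampus.

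The derlins split by region. Derl1 was 1274, 1646 and 2038 in hippocampus and 1213, 1366 and 1639 in prefrontal cortex, a difference of 0.25 ± 0.03 (adjusted p = 1.42e-14), and Derl2 had 0.15 ± 0.03. Derl3 went the other way, with medians of 27.01 and 36.01 and a difference of -0.32 ± 0.09 (adjusted p = 0.000585), which without the libraries that stood apart was -0.25 ± 0.12 (adjusted p = 0.0665). Sec61b (0.15 ± 0.05), Selenos (0.12 ± 0.04) and Dnajc3 (0.11 ± 0.04) were also higher in hippocampus. Without the libraries that stood apart, Sec61b (adjusted p = 0.0532) and Dnajc3 (adjusted p = 0.133) no longer passed, nor did Hyou1 (adjusted p = 0.0981) among the lower genes. Lower were Herpud1, Dnajb9, Canx, Sel1l and Hyou1, between -0.13 and -0.07. Hspa5 (-0.12 ± 0.08, adjusted p = 0.162), Pdia6 (0.00 ± 0.06), Pdia3, Calr and Creld2 did not pass. With the sample label as a block over both tissues, 22 were called, the added ones being Hspa5 (adjusted p = 0.0336), Hsp90b1 (-0.07, adjusted p = 0.0305) and Dnajb11 (-0.07, adjusted p = 0.0388), all lower in hippocampus. The count was 19 with the class term (background 71.4%) and 15 without the libraries that stood apart (background 63.4%). Marker genes of cell types and tissues differed as well. All 8 oligodendrocyte genes and 9 of 10 choroid plexus genes were higher in hippocampus, and 7 of 8 neuronal genes and all 6 striatal genes lower. Over all genes tested, 34.8% were called higher and 31% lower in hippocampus. The part of cell content in the regional differences was not tested.

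**Figure D5:**
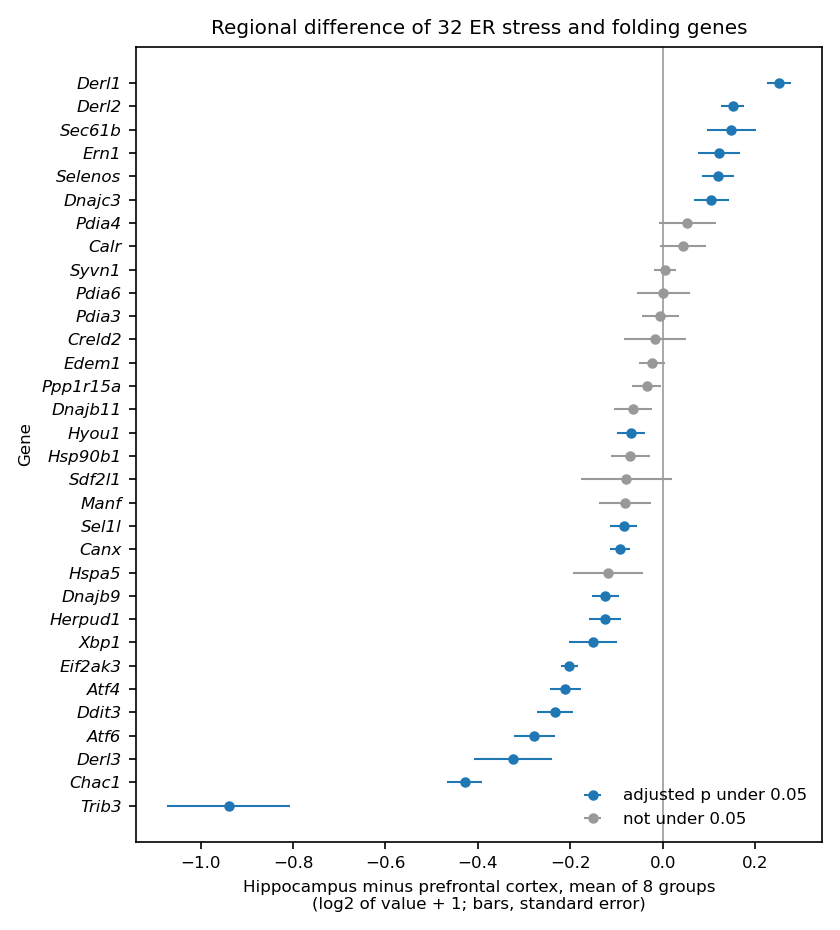
Hippocampus minus prefrontal cortex, mean of 8 groups, on the scale of log2(value + 1), for 32 genes ordered by size; bars are standard errors, blue marks an adjusted p below 0.05. Derl1 is highest at 0.25 and Trib3 lowest at -0.94, and the disulfide isomerases Pdia3, Pdia4 and Pdia6 sit around 0.

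Wider lists of the same pathway, without the 32 genes, were counted in the averaged inhibitor comparison as designed. Over all genes, 20.8% were higher and 19.2% lower in hippocampus, and 19.7% and 18.1% in prefrontal cortex, and each count is to be read against these shares. The ATF4 and integrated stress response targets had 0 higher and 10 lower of 28 tested in hippocampus and 3 higher and 13 lower of 28 in prefrontal cortex. Among them were the stress protein Nupr1 at -0.45 ± 0.10 and asparagine synthetase (Asns) at -0.14 ± 0.03 in hippocampus, and in prefrontal cortex the serine synthesis enzyme Phgdh at -0.32 ± 0.07 and the arginine transporter Slc7a1 at 0.17 ± 0.06. ER chaperones had 2 higher and 7 lower of 22 in hippocampus, and 3 higher and 8 lower in prefrontal cortex. In hippocampus the lower ones included Cnpy2 at -0.27 ± 0.06 and Serp2 at -0.22 ± 0.05, and the 2 higher were the ER-phagy receptor Ccpg1 at 0.45 ± 0.09 and Dnajc1 at 0.26 ± 0.04. ER-associated degradation had 2 higher and 5 lower of 22, and 4 and 6 in prefrontal cortex, with the extraction ATPase Vcp at -0.16 ± 0.04 and -0.15 ± 0.04 and the mannosidase Edem3 at 0.21 ± 0.05 and 0.25 ± 0.06. N-glycan processing had 4 higher and 3 lower of 16, and 6 and 3. There the oligosaccharyltransferase subunit Dad1 was at -0.21 ± 0.05 and -0.20 ± 0.05, and the folding sensor Uggt1 at 0.24 ± 0.04 and 0.25 ± 0.05. Sensors and transducers had 3 higher and 5 lower of 16, and 5 and 4, with the membrane-bound factor Creb3 at -0.21 ± 0.05 and -0.20 ± 0.05 and its relative Creb3l2 at 0.22 ± 0.04 and 0.29 ± 0.05. Oxidative folding had 2 higher and 5 lower of 15, and 4 and 4, with the peroxiredoxin Prdx4 at -0.25 ± 0.06 and -0.20 ± 0.05 and the oxidase Ero1l at 0.11 ± 0.04 and 0.19 ± 0.05. Translocation had 1 higher and 5 lower of 17, and 4 and 6. The translocon-associated Ssr2 was at -0.25 ± 0.05 and the channel subunit Sec61a2 at 0.23 ± 0.05 in hippocampus. With the class term 1 gene of all these lists was called, Dnajc1 in hippocampus (0.15 ± 0.04, adjusted p = 0.0446), and 0 in prefrontal cortex. Over all genes the calls fell in the same way, from 7972 to 75 in hippocampus and from 7499 to 43 in prefrontal cortex.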

How the data were processed

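Messenger RNA was measured in 96 libraries, grouped by the tissue, treatments and sex in their labels. The submitters' processing notes name Trimmomatic, STAR 2.6.1d and GRCm39 (mm39), while for the counting tool and its strand setting nothing is given in the sources used. The authors deposited a normalised signal per gene symbol, which from the values is a read count divided by 1 factor per library, and 100% of values in 96 columns gave whole reads (tolerance 0.01). Values of each tissue were analysed as log2(signal + 1) with limma 3.58.1 in R 4.3.3 (trend, two-sided, 8 groups in 1 fit, genes reaching a signal of 10 in 5 or more libraries). That left 19938 genes in hippocampus, 19841 in prefrontal cortex and 20620 in the fit of both tissues. P-values were adjusted by Benjamini-Hochberg over all genes tested, at a threshold of 0.05. All 32 members passed the filter as designed. A fold on this scale understates the change of low genes such as Trib3 and Derl3, and counting error limits their precision. Count tests on recovered reads (edgeR 4.0.16, DESeq2 1.42.0) called 12 and 11 members in the averaged hippocampal inhibitor comparison and 14 and 14 in prefrontal cortex.

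The members, roles, pathway and cell type lists were chosen with earlier results of these data known. The rule that classes libraries by the share of 168 subunit genes (averaged over the 2 tissues of a label, split at the widest gap) was set after seeing the data, and its alternative splits each tissue alone. Called members were named, above 12 calls the 6 smallest p-values per direction, with 0 calls the 3 smallest, and Derl3, Hspa5, Xbp1, Atf4 and Ddit3 always in the averaged inhibitor comparison. Correlations were run on log2 values with group means removed and 100000 permutations, in Python 3.11.15 with SciPy 1.17.1. Values were permuted over all libraries of a set and not within groups, which makes the permutation p-values within and between tissues somewhat too small. Labels name separate samples but not animals, so p-values measure the spread between libraries, which may be partly technical. The procedure was tested on simulated data. Alternatives were another pseudocount, no filter, TMM scaling, the count tests, a replicate block and leaving out each library.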

Additional observations from a re-analysis of the deposited data

Results flagged for a closer look

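Within groups of 4 to 10 libraries, 1 value of Hspa5 or Derl3 lay far from the others among 32 groups tested. Derl3 in prefrontal cortex of saline control males was 54.52 in replicate 4, against 22.69 to 31.11 in the other 5, and the gap made up 0.735 of the range of the group (critical value 0.625). This library is among those that stand apart. Over all 32 genes 27 of 512 groups (5.27%) held such a value, spread over 16 libraries, and chance flags about 1 in 20 groups.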

How the results depend on the processing

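The averaged inhibitor comparison in hippocampus called 12 of the 32 genes as designed, 1 with a class term for libraries that stand apart and 0 without them. Splitting classes within each tissue set the same 14 hippocampal libraries apart. Those fits were therefore identical in hippocampus and are not a second check there. In prefrontal cortex that split set 16 libraries apart. The averaged comparison in prefrontal cortex called 14, then 2 and 0. With classes split within the tissue it called 4 (Sdf2l1, Derl3, Herpud1 and Syvn1) and 2 (Hyou1 and Sdf2l1). In hippocampus of saline males the 1 call became 0 with DESeq2 and 0 without the libraries that stand apart. In prefrontal cortex of saline males the 0 calls became 1 with edgeR (71 of all genes, 0.358%) and 6 with DESeq2 (1236 of all genes, 6.23%). Reversed values in hippocampus were Ddit3 at 0.08 with the term (0.083) and 0.07 without these libraries (0.074), and Sec61b at 0.009 without them. In prefrontal cortex they were Ddit3 at 0.02 (term) and 0.009 (without), and 0.052 and 0.068 under the second split, Selenos at 0.009 without, and 0.01 and 0.016 under the second split, and Atf4 at 0.008 and 0.037 under the second split. Xbp1 (0.023) and Creld2 (0.034) in females against males of prefrontal cortex reversed without libraries under the second split. The cause was not tested. The second split and the relations between tissues were chosen after seeing the data. Leaving out 1 library at a time gave 11 to 16 calls in the hippocampal average, 13 to 15 in the prefrontal average and 18 to 19 between tissues. It gave 0 to 1 in hippocampus of saline males, 0 to 4 in MIA males of either tissue (without MIA control replicate 2 or 5), 0 to 6 in prefrontal cortex of saline males (without control replicate 4 or 6 or PLX replicate 5), and 0 in the other comparisons. With the replicate block the counts were 11, 13 and 22 (hippocampal average, prefrontal average, between tissues) and no other count changed. The 2 tissues of a label had correlations of deviations from -0.0971 to 0.687 (median 0.242, 42 of 48 over 0.1). Of the 48 labels, 38 were best with their own number within their group, so most labels matched between the tissues. Control and PLX of 1 number had -0.399 to 0.416 (median 0.0194, 14 of 46 over 0.1), and their numbers showed no such match. Depth limits Trib3 and Derl3, whose lowest values are 0 and 12.88 normalised reads.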

Other observations

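The genes of the whole table that followed Hspa5 most closely were looked up after the correlations had been seen, as a description without a test. They were ranked over both tissues and both classes of library, with group means removed. Of the 30 highest, 12 were members of the set. Among the others were Mlec, a lectin of the ER that binds newly made glycoproteins, with r = 0.862 in hippocampus and 0.86 in prefrontal cortex over 34 libraries each, and Uggt1, the folding sensor of glycoproteins, with 0.877 and 0.757. The cytosolic chaperone Hsph1, a partner of heat shock proteins, had 0.75 and 0.767, and in the 12 libraries that stood apart 0.887 and 0.89. The lowest values belonged to genes outside the ER. Cirbp, an RNA-binding protein known to be induced by mild cold, had r = -0.82 and -0.841, and -0.862 and -0.929 in the libraries that stood apart. Pla2g4e, a cytosolic phospholipase, had -0.88 and -0.887, and -0.96 and -0.967. These genes were picked by hand from the 30 highest and 10 lowest, and each kept its sign in both tissues and classes. Others of similar r include Stk4 (0.769 and 0.838) and Zdhhc8 (-0.77 and -0.766) over the 34 libraries of each tissue.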
